A study of Mus musculus with 5 samples.

Results

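The 38 genes described here belong to the cell's response to low oxygen and to glycolysis. They were chosen by name from textbook pathway membership, with earlier results of these data known. Matched to the symbols of the feature table, all 38 of 38 were found among 32286 features. Low oxygen is sensed by prolyl hydroxylases such as Egln1 and Egln3, which mark the transcription factor subunits Hif1a and Epas1 for destruction when oxygen is present. Without oxygen these subunits persist and switch on genes for glucose uptake, glycolysis, acid export, mitophagy and collagen hydroxylation. Tumour regions far from vessels are a classic site of this programme, and tumour-associated macrophages are known to run it too.

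Single cells were profiled from 5 synovial sarcomas (SyS) of *hSS2* mice, which carry the human SS18::SSX2 fusion switched on by TATCre injection into the limb of pups, and whose tumours were taken at morbidity. Part of each tumour was dissociated and its red cells were lysed. All 5 tumours carry the fusion, and no fusion-free tumour or tissue was profiled. By the histology in the labels, BP (replicates 1 and 2) was biphasic, PD+MP was poorly differentiated mixed with monophasic, MP was monophasic, and MP+BP held both monophasic and biphasic parts, with 1 tumour for each label but BP. Mice were of a mixed strain, written CB57Bl/6-svJ, and 2 to 6 months old, a range that covers all experiments and not these tumours alone. The age of each of these mice was not given in the sources used here, nor whether both BP tumours came from 1 animal, so p-values concern these 5 samples only. Comparisons made within tumours set both sides of each tumour against each other. Their p-values rest on a spread that the test shares in part between genes. Such p-values can be smaller than a gene's own spread over the 5 tumours would give. Only the comparison by label uses the spread between samples.

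The libraries held 8931 to 11565 barcodes and 89996321 to 118649103 UMIs (unique molecular identifiers, each a counted RNA molecule) per tumour, and any 2 libraries shared 15 to 33 barcodes. After filtering, 39559 cells remained. Of these, 21947 were SyS-like, 3870 macrophage-like, 2433 endothelial-like and 1391 stromal (pericyte-like or fibroblast-like), while 8923 stayed unnamed. SyS markers summed to 3420 to 5433 counts per 1000000 UMIs (CPM) in SyS-like cells against 142 to 211 in macrophage-like cells, and EGFP reached 30.7 to 42.3 CPM in SyS-like cells against 0.629 to 2.57 in macrophage-like cells. PD+MP stood apart in its makeup, with 123 of the 148 fibroblast-like cells and only 81 endothelial-like cells. Of the unnamed cells, 8787 lay in 7 clusters that carried SyS markers, of which 3 were shallow (4018 cells) and 4 had genes of another class among their leading genes (4769 cells). Unnamed cells had 22.8 to 39.9 CPM of EGFP and 2855 to 4529 CPM of SyS markers, so the SyS-like class leaves out many likely tumour cells. Fibroblast-like and neutrophil-like cells reached 37.7 and 24.0 CPM of EGFP in their highest tumour, from 15 and 9 UMIs in all.

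To ask whether the genes rise together within a cell class, the members were divided by role before ranking cells. The hypoxia seed held 13 response genes, the glycolysis seed held 22 genes of glucose uptake, glycolysis and lactate handling, and Hif1a, Epas1 and Anxa2 were in neither. Each cell was thinned to 3000 UMIs, cells were ranked by 1 seed within their own tumour, and the highest 10% were set against the others. A seed chose the cells, so its own genes are only described, and the tests concern members that did not choose them.

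Promoter sequence is shown for 4 members on which the results below turn, because a core form of the hypoxia response element, ACGTG, can be read directly in it. Only this form is called the core here, and other forms were not searched. The sequences are from RefSeq on GRCm38.p6, read 5′ to 3′ on the gene's strand, and end at the base before the gene's start in RefSeq or GENCODE, whichever is farther upstream. Capitals mark ACGTG or its reverse complement CACGT, and where both overlap the letters form the palindrome CACGTG, which is also the E-box of other factors.

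The windows are Pgk1 at chrX:106186850-106187099 (plus strand), Bnip3 at chr7:138909520-138909756 (minus strand), Pgam1 at chr19:41911621-41911870 (plus strand), Gpi1 at chr7:34230337-34230586 (minus strand).
Pgk1: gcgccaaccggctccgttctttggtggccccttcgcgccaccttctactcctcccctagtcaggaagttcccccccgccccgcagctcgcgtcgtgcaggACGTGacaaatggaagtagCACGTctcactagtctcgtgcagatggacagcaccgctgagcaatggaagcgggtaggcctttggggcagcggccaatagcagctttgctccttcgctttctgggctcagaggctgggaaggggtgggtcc
Bnip3: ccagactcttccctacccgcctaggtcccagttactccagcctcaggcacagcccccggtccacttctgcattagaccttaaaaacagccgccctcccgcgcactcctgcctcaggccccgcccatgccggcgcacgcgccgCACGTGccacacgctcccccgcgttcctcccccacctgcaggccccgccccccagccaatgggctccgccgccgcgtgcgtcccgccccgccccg
Pgam1: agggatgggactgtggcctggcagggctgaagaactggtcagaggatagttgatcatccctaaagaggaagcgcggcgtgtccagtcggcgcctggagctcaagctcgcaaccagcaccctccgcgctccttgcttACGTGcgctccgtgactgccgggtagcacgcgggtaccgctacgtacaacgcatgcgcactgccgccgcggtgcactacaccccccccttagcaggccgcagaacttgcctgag
Gpi1: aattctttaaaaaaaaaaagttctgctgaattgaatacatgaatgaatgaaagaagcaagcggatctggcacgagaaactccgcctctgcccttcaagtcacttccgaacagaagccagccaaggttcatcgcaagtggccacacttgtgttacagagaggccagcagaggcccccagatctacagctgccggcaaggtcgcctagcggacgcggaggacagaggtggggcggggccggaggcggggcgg

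Pgk1 carried the core at 150 and 131 bases before its start, Bnip3 carried the overlapping pair at 108 and 107 bases before its start in RefSeq, which lies downstream of the end of its printed window of 237 bases, Pgam1 had a single core at 114 bases, and the Gpi1 window had none. Counted over 250 bases before each start, the core lay in 21 of 43 windows of the members (48.8%) and in 5444 of 32851 windows of all genes (16.6%). By gene, 8 of the 10 hypoxia seed genes with a window held it, and 9 of 21 of the glycolysis seed. The members' windows were also richer in G and C (61.9% against 53.2% over all windows), whose part in the difference was not tested, and a match is a description of letters only. No window was matched for Epas1, Slc2a3, Bnip3l, Ndrg1 and Ero1l.

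In tumour cells the glycolytic enzymes reached high levels and many hypoxia response genes low ones. The 22 genes of the glycolysis seed summed to 2783 ± 706 CPM (mean ± SD, n = 5 tumours) in SyS-like cells and the 13 of the hypoxia seed to 427 ± 59.6. Macrophage-like cells had 2578 ± 925 and 346 ± 106 CPM, endothelial-like cells 2330 ± 428 and 644 ± 62.8, and stromal cells 1920 ± 410 and 625 ± 70.6. UMIs from the 3′ end count each molecule once, so no length scaling was applied. Gapdh, which oxidises glyceraldehyde 3-phosphate, reached 773 CPM in BP replicate 1, 639 in BP replicate 2, 1471 in PD+MP, 819 in MP and 623 in MP+BP. The PD+MP tumour was the highest for Gapdh, and it was highest as well for Tpi1 (505 against 229 to 315 CPM), Slc2a3 (110 against 13.2 to 50.9), Ddit4 (27.9 against 6.78 to 8.68) and Hif1a (124 against 67.2 to 75.1). Car9 and Car12, the carbonic anhydrases that buffer pH outside the cell and are classic hypoxia markers, lay at 1.65 to 2.84 and 0.375 to 1.17 CPM in SyS-like cells, from 725 and 275 UMIs over 21947 cells.

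**Figure D1:**
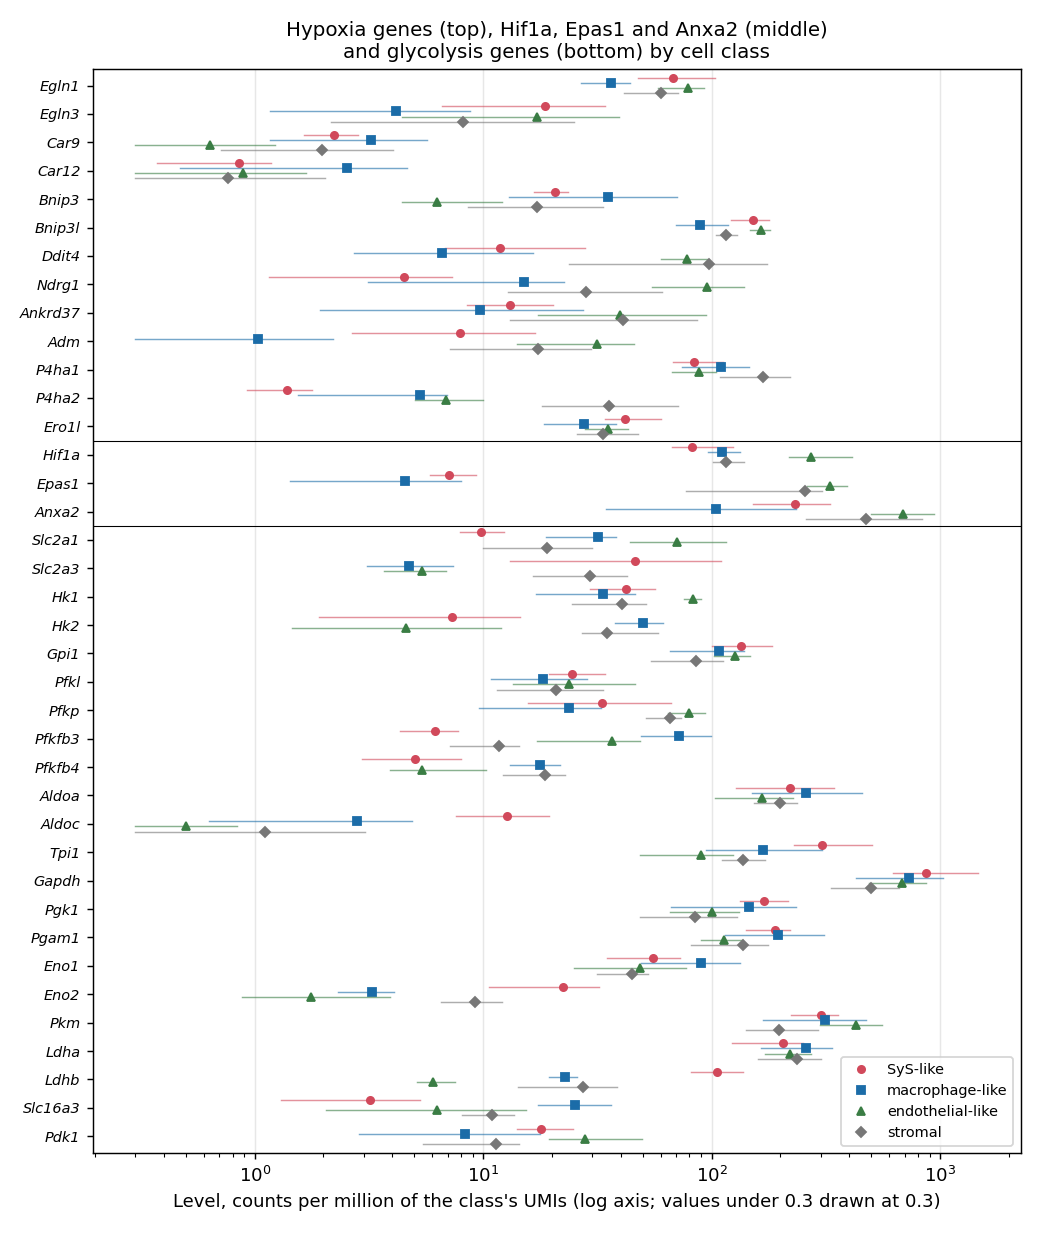
Mean level of each member over the 5 tumours (symbols) and its lowest to highest tumour (lines) in SyS-like, macrophage-like, endothelial-like and stromal cells, in CPM on a log axis. Epas1 and P4ha2 lie far lower in SyS-like than in stromal cells, and Aldoc and Ldhb far higher.

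SyS-like cells had less of several oxygen-regulated genes than stromal cells. Of 38 members tested, 4 had higher and 15 lower levels in SyS-like cells, and the members' median log2 fold change was -0.07 against 0.15 over all genes tested. Among genes outside the clustering features, 16.7% were higher and 9.64% lower in this comparison. Those features are the most variable genes, and the members were barred from them. Over all 17540 genes tested, 2933 were higher and 2444 lower. The members' lower share exceeded both backgrounds and their higher share did not. Epas1, a paralogue of Hif1a known for its role in endothelium, had 9.27, 6.21, 7.38, 6.80 and 5.88 CPM in SyS-like cells of BP replicate 1, BP replicate 2, MP, MP+BP and PD+MP. In stromal cells the same tumours gave 302, 300.3, 300.009, 303 and 77.1 CPM, so the classes did not overlap, and PD+MP, whose stromal cells were mostly fibroblast-like, was the lowest. The log2 difference was -5.32 ± 0.32 (SE, adjusted p = 1.22e-05 by edgeR's quasi-likelihood test with Benjamini-Hochberg adjustment, as for all adjusted p below unless another tool is named). P4ha2, a collagen prolyl hydroxylase subunit, differed by -4.80 ± 0.32 (adjusted p = 2.33e-05). Lower too were Ddit4, an mTOR inhibitor induced by stress (-3.41, though not in PD+MP with 27.9 against 23.8 CPM), Ndrg1 (-2.89), Hk2, the inducible hexokinase (-2.82), Pfkfb4 (-2.21) and Slc16a3, the lactate exporter (-2.13).

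Higher in SyS-like than in stromal cells were Aldoc, the brain aldolase (3.19 ± 0.57), Ldhb, the lactate dehydrogenase subunit of oxidative tissues (1.75 ± 0.28), Tpi1 (0.83 ± 0.23) and Pgk1 (0.77 ± 0.21). Tpi1 lost its call when BP replicate 2 or MP+BP was left out, Pgk1 when BP replicate 2 or MP was left out, and both when doublets were kept. Without scaling beyond total counts, which moved the median of all genes from 0.15 to 0.43, 10 members were higher, the additional ones being Egln3, Gpi1, Gapdh, Pgam1, Eno2 and Pkm. Adm lost its call as lower, and no called member was reversed. Dissociation and immediate early genes, which respond to handling, were lower in SyS-like cells as well, with 9 of 15 called lower and 0 higher (median log2 fold change -1.22). Against macrophage-like and endothelial-like cells, 8 and 9 of the 15 were lower and 2 and 3 higher. Their part in the class differences was not tested.

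Against macrophage-like cells, members of the same enzyme family lay on opposite sides. Of 38 members, 7 were higher and 17 lower, where 37.1% and 23.4% of the background genes were, so the lower share again exceeded the background and the higher share fell short of it. Over all 17585 genes tested, 6383 were higher and 4877 lower. Slc2a3, the high-affinity glucose transporter, had 50.9, 41.7, 13.2, 15.1 and 110 CPM in SyS-like cells of BP replicate 1, BP replicate 2, MP, MP+BP and PD+MP against 4.72 ± 1.76 CPM in macrophage-like cells, a log2 difference of 2.46 ± 0.27 (adjusted p = 2.25e-05). Slc2a1, the transporter of most cells, went the other way with 9.77 ± 1.62 against 31.8 ± 8.17 CPM (-2.30 ± 0.19). Eno2, the neuronal enolase, was higher in SyS-like cells (2.12 ± 0.27) and Eno1 lower (-1.26 ± 0.22).

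The lactate dehydrogenases parted in the same way, with Ldhb higher by 1.58 ± 0.15 and Ldha lower by 0.94 ± 0.18 on the log2 scale. The largest difference was that of Pfkfb3, whose product makes the activator of phosphofructokinase. It had 6.18 ± 1.67 CPM in SyS-like and 71.7 ± 18.2 CPM in macrophage-like cells, with no overlap (-4.16 ± 0.23, adjusted p = 1.45e-07). Hk2 (-3.72 ± 0.43) and Slc16a3 (-3.68 ± 0.23) followed. Without scaling the median of all genes moved from 0.21 to 0.82. On that scale 14 members were higher and 11 lower, Ldha, Aldoa, Bnip3 and Car9 lost their calls, and Pgam1 and Pkm, lower with scaling (-0.57 ± 0.20 and -0.57 ± 0.21), changed sign without a call. Egln3 and Adm, called higher (1.53 ± 0.58 and 1.86 ± 0.64), each lost that call without BP replicate 1, BP replicate 2, MP or MP+BP. Anxa2 (0.78 ± 0.31) lost it without BP replicate 2, MP or MP+BP. Eno1b, a near copy of Eno1, took 1401 UMIs in SyS-like cells against 18151 for Eno1, and a second Aldoa entry 106 against 72970.

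Endothelial-like cells gave another pattern, with 8 members higher and 17 lower in SyS-like cells against 30.4% and 18.9% of the background genes. Over all 17858 genes tested, 5284 were higher and 4156 lower. Epas1 (-5.77 ± 0.19), Ndrg1 (-4.76 ± 0.23), Ddit4 (-3.25 ± 0.39), Slc2a1 (-3.01 ± 0.25), Pfkfb3 (-2.81 ± 0.24) and P4ha2 (-2.58 ± 0.29) were lower. Aldoc (3.95 ± 0.38), Ldhb (3.795 ± 0.19), Eno2 (3.37 ± 0.30) and Slc2a3 (2.35 ± 0.37) were higher. Ldhb had 106 ± 21.2 CPM in SyS-like cells and 6.02 ± 1.04 in endothelial-like cells, and Aldoc, Ldhb, Eno2 and Slc2a3 were each higher in all 5 tumours against both macrophage-like and endothelial-like cells. Bnip3, a mitophagy receptor, was higher than in endothelial-like cells (1.48 ± 0.26) and lower than in macrophage-like cells (-1.17 ± 0.29).

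Some of the highest levels lay in small classes, given here without a test. Slc16a3 had 166 CPM in the 116 neutrophil-like cells of BP replicate 1 against 3.25 CPM in its SyS-like cells. In mast-like cells Ndrg1 had 572 CPM in MP and 791 in MP+BP, from 107 and 109 cells, and Ldha 581 and 920 CPM in the same cells. No mast-like cell was found in BP replicate 2.

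In SyS-like cells high for the hypoxia seed, 5 enzymes of glycolysis were modestly higher, and the differences were largest in BP replicate 1 and MP. Of the 25 members outside the seed, 5 were higher in the high SyS-like cells and 0 lower by edgeR, and 24 of 25 had a positive log2 fold change, with a median of 0.25 against -0.0006 over all genes. Among all 13380 genes tested, 0.351% were higher and 0.0598% lower, 14 of the 25 members had an unadjusted p under 0.05, and DESeq2 also called 0 lower. Pgk1, which makes the first ATP of glycolysis, had the smallest adjusted p by edgeR. In the high cells it had 297 CPM in BP replicate 1, 174 in BP replicate 2, 185 in PD+MP, 413 in MP and 158 in MP+BP. In the others the same tumours had 140, 131, 188, 193 and 127 CPM, so it was higher in 4 of 5 tumours and level in PD+MP (0.59 ± 0.06, adjusted p = 9.92e-12). Changes in single tumours spread more widely than this SE, which uses a dispersion that edgeR shares in part between genes.

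Aldoa, the main aldolase, was higher by 0.37 ± 0.05 and in all 5 tumours, reaching 508 against 348 CPM in MP but only 232 against 219 in MP+BP. Gpi1, the second enzyme of glycolysis, followed (0.34 ± 0.06), then Ldha (0.26 ± 0.05) and Gapdh (0.21 ± 0.04), all in 5 of 5 tumours. Slc16a3 had a larger but uncertain difference (1.01 ± 0.30, adjusted p = 0.151), with 6.09 ± 2.87 against 2.94 ± 1.64 CPM. Hif1a itself did not differ past the threshold (0.08 ± 0.07, adjusted p = 0.890). The number of calls moved with 2 tumours. Without MP 2 members were called (Pgk1 and Aldoa), and without BP replicate 1 there were 3 (Pgk1, Aldoa and Gpi1). DESeq2 called Gpi1, Ldha and Gapdh, but gave adjusted p = 0.323 for Pgk1 and 0.262 for Aldoa at log2 fold changes of 0.59 and 0.38.

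The size of the subset can be read from the counts in single cells. Cells with 4 or more hypoxia seed UMIs of 3000 made up 6.38% of ranked SyS-like cells in BP replicate 1, 2.26% in BP replicate 2, 7.31% in PD+MP, 4.38% in MP and 3.49% in MP+BP. In MP these 182 cells averaged 15.7 glycolysis seed UMIs, against 8.49 in cells with no hypoxia seed UMI, a ratio of 1.85. BP replicate 1 gave 11.2 against 7.01 (ratio 1.60), while the ratio was 1.14 for BP replicate 2, 1.196 for MP+BP and 1.08 for PD+MP. PD+MP had the most glycolysis UMIs in every class of cell up to 3 hypoxia UMIs, but the lowest ratio. These are descriptions of cells, which are no replicates, and no difference between tumours was tested.

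**Figure D2:**
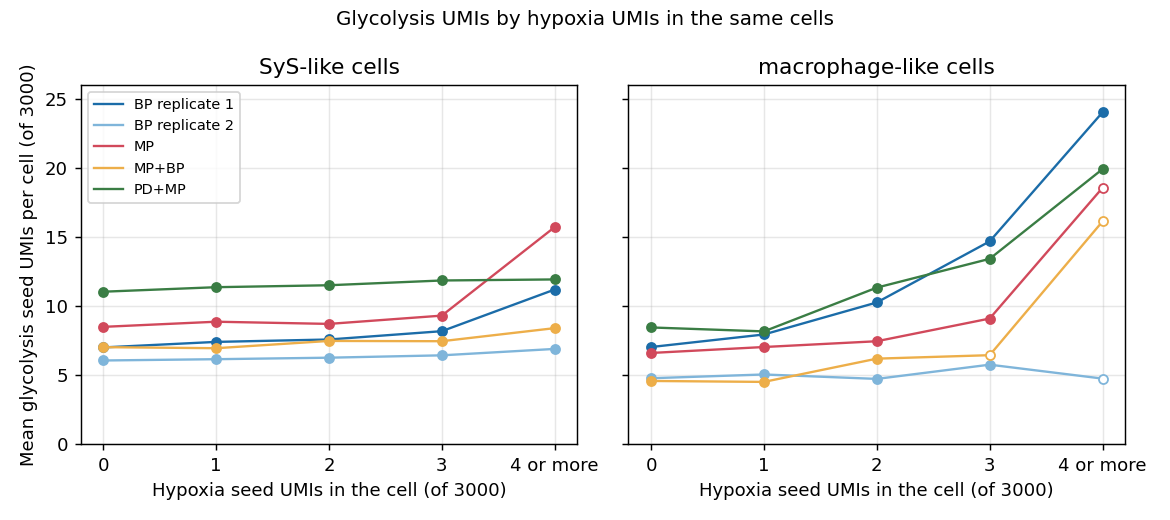
Mean glycolysis seed UMIs per cell (y axis, of 3000 UMIs) by the number of hypoxia seed UMIs in the same cell (x axis), 1 line per tumour, for SyS-like and macrophage-like cells; open points stand for under 20 cells. SyS-like cells of MP rise to 15.7 in the last bin and those of PD+MP stay at 11.9, whereas macrophage-like cells of BP replicate 1 reach 24.0.

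The seed is uneven, since Bnip3l, P4ha1 and Egln1 gave 31.6%, 18.8% and 16.9% of the seed UMIs in the high SyS-like cells, and Car9 0.409%. Between 134 and 693 cells per tumour were tied at the threshold, most in BP replicate 2, which had 474 high cells. Ties were broken at random. The score at the threshold was 0.107 in BP replicate 2, 0.138 in MP and MP+BP, and 0.160 in BP replicate 1 and PD+MP. The part of the ties in differences between tumours was not tested. Other genes of the pathway were listed apart from the members. Of 24 tested, 19 had a positive log2 fold change (median 0.12), 5 were higher and 0 lower. Those higher were Fam162a (0.40 ± 0.07), Vegfa, the main angiogenic factor (0.35 ± 0.07), Bhlhe40 (0.32 ± 0.05), Higd1a (0.29 ± 0.06) and Mif (0.18 ± 0.04). Outside all lists, called genes were named only if they had a mean of at least 10 CPM and changed the same way in all 5 tumours. By this rule Hmox1, the haem oxygenase, was higher (0.65 ± 0.06, 330 against 215 CPM), as were Barx1, Isg15, Nrxn3 and Npy. Nexmif, E130114P18Rik, Ambra1, Dmd and AY036118 were lower. None of 21 other glucose metabolism genes, 22 respiratory chain genes and 30 cell cycle genes was called by edgeR, with 2, 1 and 4 at an unadjusted p under 0.05.

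High and other cells differed in some further measures. The median UMI count before thinning was higher in the high cells in 5 of 5 tumours (12472.5 against 11248.7 on average), dissociation and immediate early genes summed to 7532 against 6938 CPM (higher in 5 of 5, with Nr4a1 and Fos called), and SyS markers were lower in 5 of 5 (3807 against 3965 CPM). All 15 of 15 dissociation and immediate early genes had a positive log2 fold change (median 0.14). Of these, 13 had an unadjusted p under 0.05 by edgeR. Macrophage markers were low on both sides (52.0 to 86.9 against 48.2 to 84.8 CPM over tumours, higher in the high cells in 4 of 5). The mitochondrial share was higher in the high cells in 2 of 5 tumours (4.42% against 4.59% on average). The part of depth and of the immediate early genes in the result was not tested. All 5 members were called also among cells with at most 10% mitochondrial UMIs, among the cells of each tumour lower for cell cycle genes, and when cells were ranked within each cluster.

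**Figure D3:**
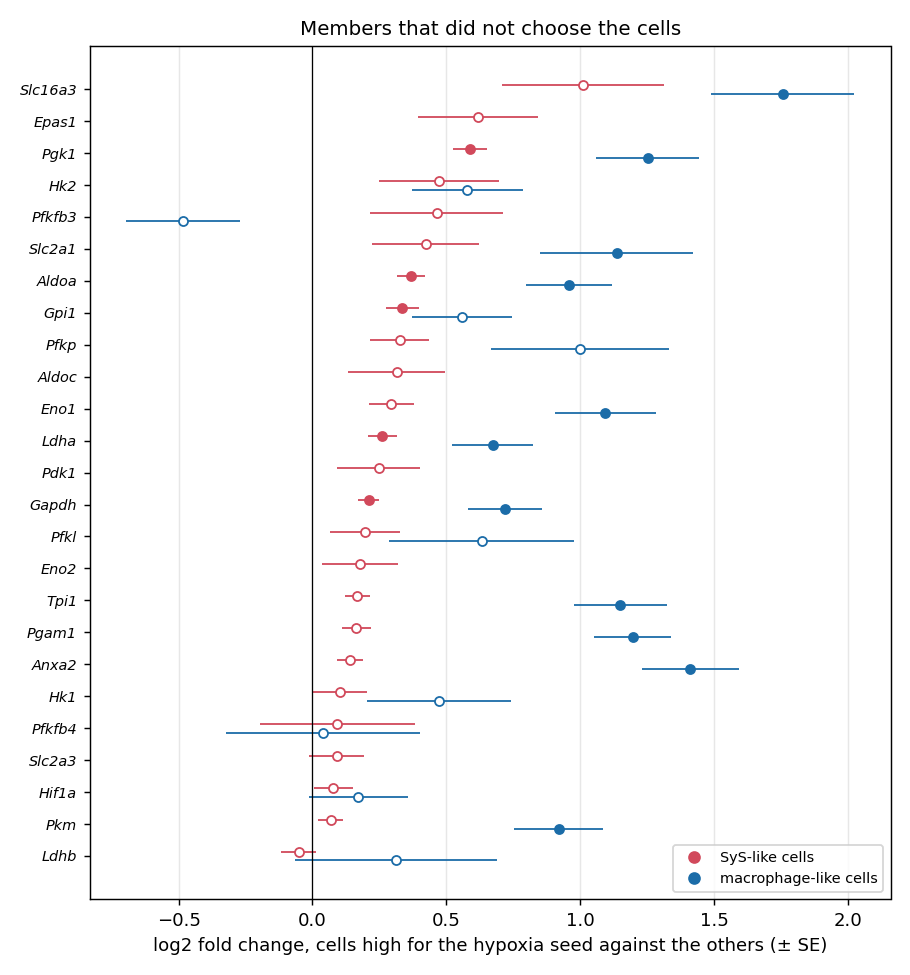
Log2 fold change ± SE of each member outside the hypoxia seed, cells high for the seed against the others, in SyS-like and macrophage-like cells, over 5 tumours; filled symbols passed an adjusted p of 0.05. Most members lie farther from 0 in macrophage-like cells, as for Pgk1 at 0.59 and 1.25, and Pfkfb3 lies on opposite sides.

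Ranking by glycolysis gave the converse view. Of 13 members outside that seed which passed the filter on low counts, 5 were higher in the high SyS-like cells and 0 lower by edgeR, with 7 at an unadjusted p under 0.05. DESeq2 called 4 of the 5 and 0 lower, and gave Ankrd37 no adjusted p. This comparison called far more of the genome, 7.35% of genes higher and 7.06% lower. Bnip3 had 53.2, 24.6, 57.8, 26.8 and 33.6 CPM in the high cells of BP replicate 1, BP replicate 2, MP, MP+BP and PD+MP. The other cells had 13.97, 20.6, 16.9, 15.8 and 24.8 CPM, so it was higher in 5 of 5 tumours, most in MP and BP replicate 1 (1.07 ± 0.16, adjusted p = 1.43e-05). Egln1, itself a target of the factor it marks for destruction, was higher in 5 of 5 (0.64 ± 0.10), Ankrd37 in 4 of 5 (0.64 ± 0.17), Anxa2, a membrane-binding annexin, in 5 of 5 (0.41 ± 0.07) and Bnip3l in 4 of 5 (0.40 ± 0.08). Without MP, Ankrd37 lost its call. Car9, Car12 and P4ha2 did not pass the filter.

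**Figure D4:**
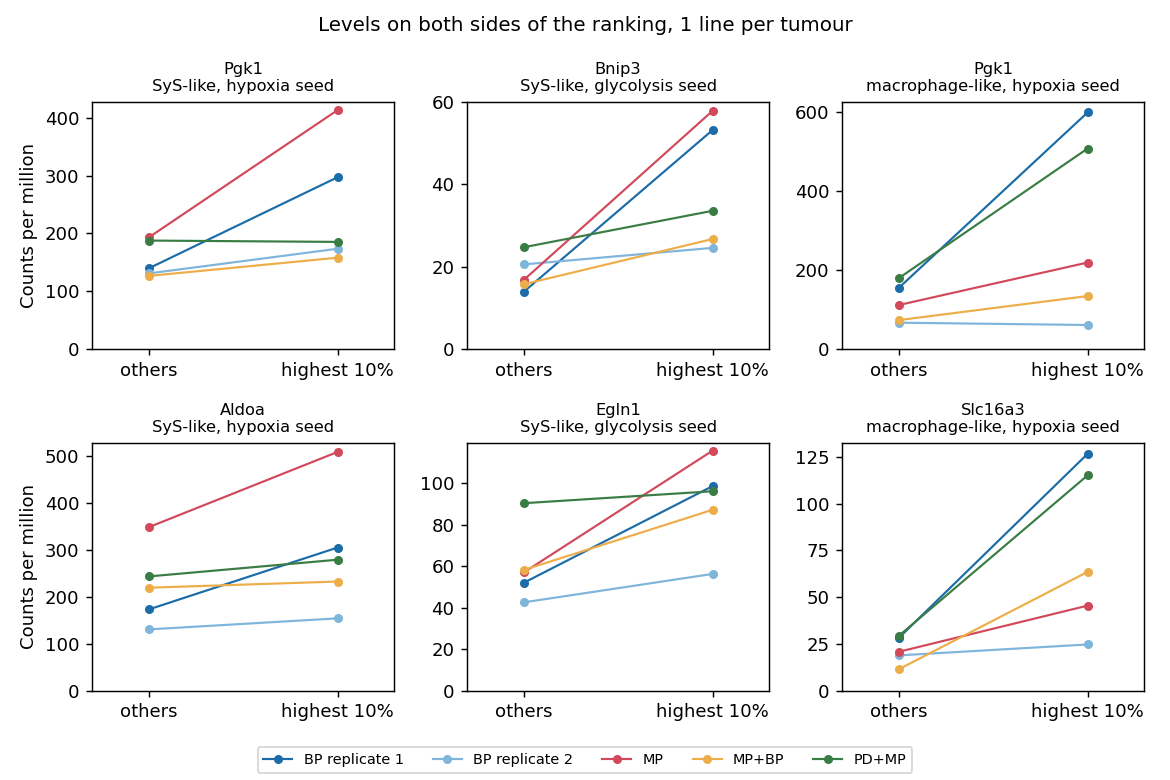
CPM of 6 members in the highest 10% of cells and in the others, 1 line per tumour, with the cell class and the seed used for ranking above each panel. Lines for MP and BP replicate 1 are steepest in SyS-like cells, with Pgk1 at 413 and 297 CPM in the high cells, and BP replicate 2 is nearly flat for Pgk1 in macrophage-like cells.

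Mitochondrial energy genes and proliferation moved with glycolysis, in opposite directions. Of 22 nuclear respiratory chain genes, 19 were higher and 0 lower, among them Sdhd (0.37 ± 0.09) and Atp5b (0.35 ± 0.07). Of 30 cell cycle genes, 0 were higher and 14 lower, among them Top2a (-0.71 ± 0.10), Cenpf (-0.68 ± 0.09) and Mki67 (-0.61 ± 0.10), each lower in 5 of 5 tumours. Among other hypoxia pathway genes 6 of 24 were higher and 0 lower, including Ak4 (1.07 ± 0.27), Mif (0.70 ± 0.07), Fam162a (0.70 ± 0.10), Higd1a (0.59 ± 0.08) and Vegfa (0.31 ± 0.09). ATF4 and ER stress genes had 4 of 10 higher, dissociation and immediate early genes 4 of 15, and other glucose metabolism genes 2 of 21 (Pgm1 and Bpgm), with 0 lower in each.

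Some genes outside the lists had larger changes. Among those with a mean of at least 10 CPM and the same direction in all 5 tumours, Ndufa4l2 had the largest called increase (1.71 ± 0.15, 63.4 against 18.5 CPM). It is a mitochondrial protein known as a hypoxia target. Crb3, Arc, Hmox1 (1.07 ± 0.13) and Mt1, a metallothionein (1.07 ± 0.10), followed. By the same rule the beta globins fell most, Hbb-bt by 3.88 and Hbb-bs by 2.34 on the log2 scale, with Hbb-bs at 10.8 against 57.8 CPM. They were followed by Adamts18, Diaph3 and Neil3. Ribosomal protein genes took 15.4% of UMIs in the high cells and 14.2% in the others (higher in 5 of 5), Malat1, a nuclear RNA, 1.33% and 1.71% (lower in 5 of 5), SyS markers 3202 and 4032 CPM (lower in 5 of 5), and erythroid markers 20.006 and 83.9 CPM (lower in 5 of 5). The median UMI count was higher in 3 of 5 (11461.5 and 11347.3 on average). The part of these measures in the result was not tested, and all 5 members were called also among the cells of each tumour lower for cell cycle genes.

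The overlap of the cells high for each seed varied between tumours. Of the SyS-like cells high for the hypoxia seed, 21.4% in BP replicate 1, 11.8% in BP replicate 2, 10.7% in PD+MP, 21.2% in MP and 15.1% in MP+BP were also high for glycolysis, where 10% of all ranked cells were. Since both sets have equal size this is also the share of the other set. BP replicate 2, which had the most ties at the hypoxia threshold, and PD+MP thus lay close to the share among all cells. In macrophage-like cells the same tumours gave 48.1%, 12.3%, 39.3%, 22.7% and 38.1%. Of 703 pairs of members correlated over single SyS-like cells, 103 were positive in all 5 tumours and 21 in none, with a median r of 0.005. The highest mean r was 0.12 (Tpi1 with Gapdh) and none reached 0.2, over 2571 to 4964 thinned cells per tumour that share depth by construction. No share for pairs of other genes is given here. In macrophage-like cells 666 pairs could be computed, of which 23 had a mean r of at least 0.2 and the highest was 0.28. There 95 pairs were positive in all 5 tumours and 47 in none, with a median r of 0.015. All of these are given as a description only.

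Clusters of SyS-like cells held unequal shares of high cells, beside the 10% set for each tumour. Cluster 22, with 541 ranked cells mainly from BP replicate 1, had 12.01% high for hypoxia and 18.5% high for glycolysis. Cluster 23, mainly from BP replicate 2, had 15.9% and 14.8%, and cluster 13, almost all from PD+MP, 10.4% and 18.8%. The shallow cluster 12 (median 2961 UMIs) had 5.42% and 2.14%. The shares differed also among clusters of 1 tumour, since clusters 8, 12, 13 and 18 lay almost wholly in PD+MP and had 6.44%, 2.14%, 18.8% and 9.73% high for glycolysis. These shares are a description, and no difference between clusters was tested. With cells ranked within each cluster, the 5 members of each of these comparisons were called again.

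In macrophage-like cells the same seed went with higher glycolytic genes in most tumours. The largest shares of seed UMIs in these high cells were those of P4ha1 (26.6%), Bnip3l (20.6%) and Bnip3 (17.1%). Bnip3 gave 6.27% in high SyS-like cells, so the ranking rests on partly different genes in each class. Of 20 members outside the hypoxia seed that passed the filter, 11 were higher in the high cells (42 to 84 cells per tumour) and 0 lower by edgeR, with 15 at an unadjusted p under 0.05. DESeq2 called 9 of the 11, without Slc2a1 and Ldha, and 0 lower. The members had a median log2 fold change of 0.82 against -0.006 over all genes, while 1.26% of genes were higher and 0.217% lower. Slc16a3 was highest by fold (1.76 ± 0.27, adjusted p = 0.00021), with 127, 24.7, 45.5, 63.5 and 115 CPM in the high cells of BP replicate 1, BP replicate 2, MP, MP+BP and PD+MP against 28.2, 18.9, 20.8, 11.5 and 29.3 in the others. Anxa2 followed (1.41 ± 0.18), then Pgk1 (1.25 ± 0.19), Pgam1 (1.195 ± 0.14), Tpi1 (1.15 ± 0.17), Slc2a1 (1.14 ± 0.29), Eno1 (1.09 ± 0.19), Aldoa (0.96 ± 0.16), Pkm (0.92 ± 0.17) and Gapdh (0.72 ± 0.14).

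BP replicate 2 lacked much of this difference. Its high macrophage-like cells had 61.7 CPM of Pgk1 against 67.6 in the others, and 469 against 451 of Gapdh. The score at the threshold was 0.107 in BP replicate 2, MP and MP+BP, 0.138 in BP replicate 1 and 0.160 in PD+MP. Between 26 and 77 macrophage-like cells per tumour were tied at it, most in BP replicate 2, which had 81 high cells. The part of this in the difference between tumours was not tested. BP replicate 1 had 599 against 156 CPM of Pgk1 and had the highest level of Pgk1 and Gapdh in high cells. Without it 3 members were called, Anxa2, Pgam1 and Tpi1, and the other 8 kept their direction. Of 18 other hypoxia pathway genes 5 were higher and 0 lower, among them Hilpda, a lipid droplet protein (1.39 ± 0.24, higher in 3 of 5 tumours), Fam162a (1.03 ± 0.21) and Vegfa (0.96 ± 0.24). Among genes outside the lists that met the rule given above (at least 10 CPM and the same direction in all 5 tumours), Fn1 had the largest called increase (2.65 ± 0.26, 434 against 54.8 CPM). Ighm, Cd83, Nr4a3, Mpp7 and Tmem176b were lower.

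Macrophage markers summed to 17628 CPM in the high and 20921 in the other macrophage-like cells (lower in 4 of 5 tumours), SyS markers to 170.4 and 164.5 CPM, and neutrophil markers to 92.1 and 55.7 CPM (higher in 3 of 5). The median doublet score was 0.0375 against 0.0312 and the share of Malat1 0.939% against 0.7997% (each higher in 5 of 5), and B cell markers summed to 41.8 against 80.1 CPM (lower in 5 of 5). Their part in the result was not tested. Macrophage-like cells came from several clusters, and ranking within each cluster was done for SyS-like cells only. The part of differences between macrophage-like clusters was not tested. Among 22 respiratory chain genes and 18 cell cycle genes none was called by edgeR, with 1 and 4 at an unadjusted p under 0.05.

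The change differed between the cell classes for some members. In 1 fit over both classes with a term for the difference (SyS-like minus macrophage-like), 25 members were tested, of which 4 had a smaller change in SyS-like cells and 1 a larger one, against 0.37% and 5.15% of all genes. Anxa2 differed by -1.02 ± 0.16 (adjusted p = 2.74e-05), Pgam1 by -0.76 ± 0.14, Tpi1 by -0.76 ± 0.16 and Pkm by -0.63 ± 0.15. Pfkfb3 differed by 1.23 ± 0.32, with 7.75 against 5.40 CPM in high and other SyS-like cells and 49.9 against 71.0 CPM in macrophage-like cells. The median of all genes in this fit was 0.28, which without scaling fell to -0.01. On that scale 7 members were lower, adding Aldoa, Gapdh and Eno1, and Pfkfb3 was not called. Pfkfb3, the only member on the larger side, stood for 1 of 25 members, a share below that of all genes. It was also not called without BP replicate 1 or MP+BP, and DESeq2 gave it no adjusted p and did not call Pkm.

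The share of glycolysis UMIs held by the highest 10% for the hypoxia seed puts the classes side by side. In SyS-like cells it was 13.4% in BP replicate 1, 10.7% in BP replicate 2, 10.5% in PD+MP, 13.2% in MP and 10.7% in MP+BP. In macrophage-like cells the same tumours gave 21.9%, 10.6%, 18.6%, 14.1% and 18.2%. Endothelial-like and pericyte-like cells averaged 14.2% ± 2.68 and 13.9% ± 3.12, highest in BP replicate 1 with 18.8% and 18.2%. BP replicate 1 was thus highest in all 4 classes, BP replicate 2 was lowest in macrophage-like and endothelial-like cells, and PD+MP was lowest in SyS-like but second in macrophage-like cells. High cells numbered as few as 6 endothelial-like and 3 pericyte-like in PD+MP.

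**Figure D5:**
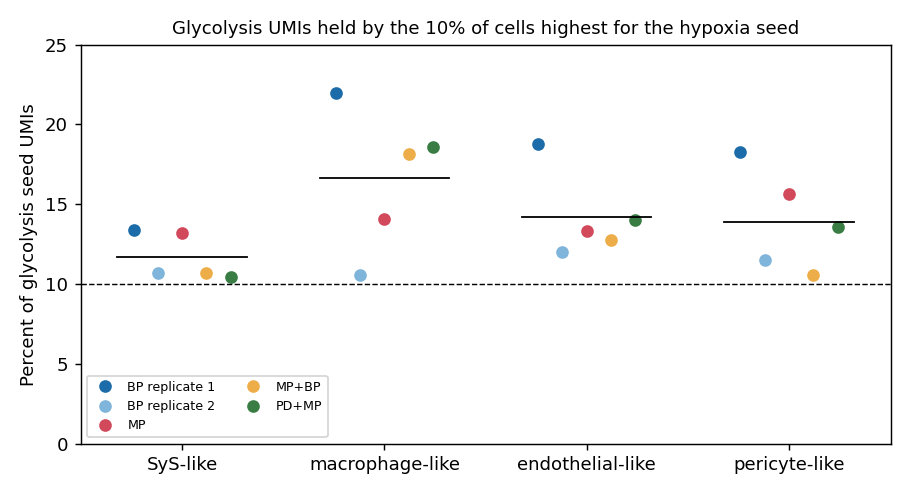
Percent of all glycolysis seed UMIs in a class that lie in the 10% of cells highest for the hypoxia seed, 1 point per tumour, with the mean as a bar and 10% dashed. SyS-like cells lie between 10.5% and 13.4%, and macrophage-like cells between 10.6% and 21.9%.

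Histology was compared last, in SyS-like cells from the 3 tumours whose label includes BP against the 2 without. No member was called of 38, and edgeR called 0% of 20628 genes, with 12 members and 1872 genes at an unadjusted p under 0.05, while DESeq2 called 460 genes and 0 members. The members' median log2 fold change was -0.33 against 0.0079 over all genes. In 14 of 38 members all 3 BP tumours lay below both others, where 9.87% of all genes did, and in 2 (Ndrg1 and Pdk1) they lay above, where 17.2% did. Pgk1 had 165, 133 and 142 CPM in BP replicate 1, BP replicate 2 and MP+BP against 217 and 195 in MP and PD+MP, and Tpi1 had 243, 229 and 230 against 315 and 505. Gapdh, Gpi1, Aldoa, Eno1, Pkm, Pgam1, Ldhb, Pfkl, Egln1, Bnip3, Bnip3l and Ddit4 were ordered likewise. All 30 cell cycle genes had a negative log2 fold change as well, with a median of -0.81, and their part in the order of the glycolytic genes was not tested. Without MP, the side without BP was PD+MP alone, a lone sample assumed to vary like the others, and edgeR then called Ddit4 lower in the BP tumours, as 1 of 425 genes called of 21181.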

How the data were processed

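Dissociated cells of 5 tumours were profiled with 10x 3′ chemistry (v3.1). The authors deposited raw UMI counts per gene and barcode, made with Cell Ranger 7.2.0 against mm10 per the file headers and labels, and the annotation release was not given in the sources used here. By identifier, 32158 of 32286 features and all 38 members were matched to the reference gene names, and gene positions were taken from GENCODE M21.

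Cells with at least 750 genes and at most 25% mitochondrial UMIs were kept. Scrublet scored doublets per tumour, and the highest scores were removed up to 0.8% per 1000 cells, since its automatic threshold marked 0 cells in MP+BP and PD+MP. Clusters (scanpy 1.11.5, leidenalg 0.10.2, 3000 variable genes without the members, 30 components, 20 neighbours, resolution 1) were named from markers, and the naming rule was changed after the clusters were seen. For each tumour and class the counts were added up, and the sums were tested with edgeR 4.0.16 (quasi-likelihood, TMM scaling, filterByExpr, tumour as a block, Benjamini-Hochberg adjusted p under 0.05), and with DESeq2 1.42.0 as an alternative. Scripts were tested on simulated data. The SE is the absolute log2 fold change divided by the square root of the F statistic. It rests on a dispersion shared in part between genes and can be smaller than the spread of a change between tumours. The comparison by label had no block.

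Where cells were ranked, each was thinned to 3000 UMIs and shallower cells were left out. CPM of high and other cells are from thinned counts, all others from all UMIs. Fold changes were to be given for at most the 10 called members with the largest change in each comparison, and the paired enzymes, the members whose call depended on scaling or on 1 tumour and the uncalled members were added after their values were seen. Genes named outside the lists were the 5 with the largest called change in each direction at a mean of at least 10 CPM, changed the same way in all 5 tumours. The members and the lists were chosen with earlier results of these data known. Totals are UMIs, so depth is counted in molecules, and intervals over cells are not given because cells are not replicates.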

Additional observations from a re-analysis of the deposited data

Results flagged for a closer look

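In SyS-like cells, 4 of 38 members had 1 tumour far from the other 4, by the gap to the nearest tumour relative to the whole range (over 0.71 for 5 samples, which chance gives in about 1 in 20 groups). In each it was PD+MP that stood above. The share among all genes was not computed, so this is not read as particular to the members. Hif1a had 123.8 CPM there against 75.1 in the nearest tumour, Pfkp 66.3 against 30.3, Gapdh 1471 against 819 and Ddit4 27.9 against 8.68.

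The change between cells high for the hypoxia seed and the others differed between SyS-like and macrophage-like cells for 5 members, by the interaction term in edgeR's quasi-likelihood fit. On the log2 scale the SyS-like change minus the macrophage-like change was 1.23 for Pfkfb3, -1.02 for Anxa2, -0.76 for Pgam1, -0.76 for Tpi1 and -0.63 for Pkm. Over all genes 5.15% had a larger and 0.37% a smaller change in SyS-like cells, so Pfkfb3, as 1 of 25 members, was no more frequent than the background. Its call was lost without scaling, at resolution 2, with doublets kept, without the filter, with the unnamed clusters, and without BP replicate 1 or MP+BP.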

How the results depend on the processing

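Of 888 values of the members with the largest called changes under an alternative, 849 kept direction and call, 39 lost the call and 0 were reversed, and 230 of 258 counts stayed within 1.5 times. Without scaling, 10 members were higher than in stromal cells, 14 were higher and 11 lower than in macrophage-like cells, with Pgam1 and Pkm turned to the higher side without a call, and in the difference between classes 0 had a larger and 7 a smaller change. With doublets kept, 2 were higher than in stromal cells. For SyS-like cells high for the hypoxia seed, DESeq2 and thinning to fewer UMIs each called 3 members, and including unnamed clusters with SyS markers, an alternative chosen after seeing the data, called 8. For the glycolysis seed, thinning to more UMIs and including those clusters called 8 of 15 members each. For the difference, 0 members had a larger change by DESeq2, at resolution 2, with doublets kept, without the filter (9 smaller) and with the unnamed clusters.

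Leaving out each tumour in turn gave 2 to 5 higher and 13 to 16 lower against stromal cells, 4 to 9 and 13 to 17 against macrophage-like cells, and 7 to 8 and 14 to 16 against endothelial-like cells. It gave 2 to 6 higher for the hypoxia seed and 4 to 7 for the glycolysis seed in SyS-like cells, 3 to 13 for the hypoxia seed in macrophage-like cells, with 0 to 0 lower in each, and 0 to 1 larger and 4 to 7 smaller for the difference. By label it gave 0 to 0 higher and 0 to 1 lower. Without the tumour block, the class comparisons kept 19 of 19, 20 of 24 and 21 of 25 calls. The tumour block pairs both sides within each tumour in the comparisons of classes and of high cells. By replicate number, no paired analysis was possible because only BP has more than 1 replicate. Depth limits Car9, Car12 and P4ha2, which did not pass the filter in high SyS-like cells, and classes with few cells.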
